A study of Mus musculus with 5 samples.

Results

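The Kruppel-like factors examined here are 10 genes of the KLF family of zinc finger transcription factors: Klf2, Klf3, Klf4, Klf5, Klf6, Klf7, Klf9, Klf10, Klf13 and Klf15. They were taken from the deposited expression table by their symbols, and each matched 1 of its 52459 rows. The table holds messenger RNA levels of mouse pancreatic cancer cells in 5 libraries, 2 of autophagy-high (AThi) and 3 of autophagy-low (ATlo) cells. All libraries share the HY15549 cell line background, the C57BL/6 strain background and the GFP-LC3-RFP reporter, in which autophagy degrades the green part and spares the red one, so that the GFP/RFP ratio reads autophagy flux. The cells were grown as organoids in Matrigel with serum, separated into single cells and sorted by that ratio, and no other treatment, dose or time is given. The groups are thus fractions of a single tumour line sorted by a reporter. The study calls the libraries biological replicates without naming separate cultures, and the p-values cover only how much these 5 libraries vary, part of which may be technical.

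KLF proteins bind GC-rich and CACCC-type DNA sequences through zinc fingers near the carboxyl end, and the family divides by the partners that the rest of the protein recruits. Klf2, Klf4, Klf5, Klf6 and Klf7 belong to the group that mostly activates transcription, Klf3 to the group that represses through the corepressor CtBP, and Klf9, Klf10 and Klf13 to the group that represses through SIN3A. In epithelia, Klf4 is known for differentiation and growth arrest and Klf5 for the growth of progenitor cells. Klf2, Klf4, Klf6 and Klf10 are also known as genes that respond quickly to serum, stress and other stimuli.

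Upstream sequences of 6 members are shown, since KLF genes carry the kind of site that KLF proteins bind. Klf2, Klf4 and Klf6 differed most between libraries of a group among the members with an entry, Klf3 and Klf9 rose in AThi and Klf13 did not pass the test. Klf7, which also rose, and Klf15, which was not tested, had an entry too but are not shown. The sequences are from RefSeq (GRCm38.p6), and each runs 5′ to 3′ on the gene's strand up to the base before the more upstream of the RefSeq and GENCODE starts. Capitals mark the GC box (GGGCGG), the CACCC box (CACCC) and, in Klf2, a MEF2 site, each on either strand.
Klf2, chr8:72318812-72319032, plus strand: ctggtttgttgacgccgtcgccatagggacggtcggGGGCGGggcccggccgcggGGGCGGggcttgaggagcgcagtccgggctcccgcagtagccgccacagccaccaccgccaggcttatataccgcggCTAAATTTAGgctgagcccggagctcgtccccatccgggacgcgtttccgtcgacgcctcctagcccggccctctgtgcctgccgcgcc
Klf4, chr4:55532476-55532725, minus strand: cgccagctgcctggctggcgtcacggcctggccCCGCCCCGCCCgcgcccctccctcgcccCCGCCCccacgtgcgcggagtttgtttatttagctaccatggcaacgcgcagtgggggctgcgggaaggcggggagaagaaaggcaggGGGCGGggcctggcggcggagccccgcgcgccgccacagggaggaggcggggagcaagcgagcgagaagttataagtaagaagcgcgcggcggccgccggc
Klf6, chr13:5861239-5861481, plus strand: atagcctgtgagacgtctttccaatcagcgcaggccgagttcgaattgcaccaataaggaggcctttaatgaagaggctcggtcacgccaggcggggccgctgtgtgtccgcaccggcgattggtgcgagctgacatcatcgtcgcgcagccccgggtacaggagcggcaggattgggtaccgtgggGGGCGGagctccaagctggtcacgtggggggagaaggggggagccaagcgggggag
Klf3, chr5:64803271-64803387, plus strand: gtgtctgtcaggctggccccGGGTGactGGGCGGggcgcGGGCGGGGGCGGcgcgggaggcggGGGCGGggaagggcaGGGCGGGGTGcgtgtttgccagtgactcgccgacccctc
Klf9, chr19:23140976-23141225, plus strand: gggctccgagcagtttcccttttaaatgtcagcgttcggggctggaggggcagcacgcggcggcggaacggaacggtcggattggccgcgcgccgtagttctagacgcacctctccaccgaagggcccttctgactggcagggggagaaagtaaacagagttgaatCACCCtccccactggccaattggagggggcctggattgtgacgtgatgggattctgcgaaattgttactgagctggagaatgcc
Klf13, chr7:63938916-63939165, minus strand: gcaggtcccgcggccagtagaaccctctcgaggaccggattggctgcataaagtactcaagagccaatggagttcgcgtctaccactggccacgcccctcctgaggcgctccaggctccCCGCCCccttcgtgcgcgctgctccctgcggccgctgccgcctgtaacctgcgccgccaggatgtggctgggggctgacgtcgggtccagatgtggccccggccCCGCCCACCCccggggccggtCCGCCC

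Motifs were counted in the full RefSeq window, 250 bases before to 50 after a start, which 8 of the 10 members had. Klf5 and Klf10 had no entry. A GC box was found in 7 of the 8 windows, against 35.7% of 32851 windows of all genes. A CACCC box was found in 6 of 8, against 57.5%. In the stretches shown, Klf3 and Klf13 each have 1 place where both boxes share bases. The MEF2 site CTAAATTTAG lies 89 bases before the GENCODE start of Klf2, the single member window with such a site (3.19% of all windows), and MEF2 factors are known to drive Klf2 in cells with active ERK5. An E-box (CACGTG) was found in the windows of Klf4, Klf6 and Klf15 (7.15% of all windows) and an AP-1 site (TGANTCA) in that of Klf9 (7.81%). The CRE (TGACGTCA, 1.79%) and the CArG box (1.63%), both known from immediate-early genes, were found in 0 of the 8 windows. A match in these letters is a description and not a bound site.

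Levels are in FPKM, fragment counts scaled for gene length and library size. Setting them side by side between genes rests on the gene lengths and the counting used, which the sources do not give. Implied depths ran from 27.7 to 44.9 M (mega) reads per library, and the 9 members other than Klf15 were backed by 1011 to 22774 implied reads in a library, a counting error of at most 3.15%. Keratin and E-cadherin transcripts of epithelial cells were high (Krt19 at 1395 to 1842 FPKM, Cdh1 at 315.65 to 392.21), while Epcam was at 1.51 to 3.57 FPKM and Cldn4 at 0 to 0.15. Endothelial markers, of interest because Klf2 and Klf4 are abundant in vessels, summed to 0.08 to 0.22 FPKM over 8 genes, with Kdr and Emcn listed at 0 in all libraries. Fibroblast markers summed to 0.11 to 0.17 FPKM over 7 genes, with Col1a2, Dcn and Lum listed at 0. Among immune markers Ptprc was at 0.04 to 0.05 FPKM and Adgre1 and Cd52 were listed at 0, but Cd68, a lysosomal membrane protein gene, was at 8.68 and 14.74 FPKM in AThi and 4.31 to 4.55 in ATlo. Of 6 acinar markers 4 were listed at 0. Cela1 was at 11.11 and 10.2 FPKM in AThi and 11.5 to 12.88 in ATlo, and Ctrb1 was at 0.62 and 0.58 FPKM in AThi and 0 to 0.03 in ATlo.

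Of the 10 members, 9 had a mean of at least 1 FPKM and were tested, and Klf15 was not. In AThi cells 5 rose: Klf3, Klf5, Klf7, Klf9 and Klf10. Klf2, Klf4, Klf6 and Klf13 did not pass, and 0 members fell. The test was limma on log2(FPKM + 0.5) over 11397 genes with a Benjamini-Hochberg adjusted p under 0.05, a threshold that 51.6% of all tested genes passed, 22.2% upward and 29.4% downward. At an unadjusted p under 0.05 in limma 5 members were higher and 0 lower, against 25.8% and 32.5% of all tested genes. Without AThi replicate 2, or with no filter on low values, 2 members passed, Klf3 and Klf7. Without AThi replicate 1 again 5 passed, but these were Klf3, Klf4, Klf6, Klf7 and Klf10. The values of the groups did not overlap, with AThi higher, in the same 5 members, against 31.9% of all tested genes, and with AThi lower in 0, against 38.4%. The median difference over the 9 members was 0.37 on the log2 scale, against -0.03 over all tested genes. In RNA from a sorted population, fewer cells that express a gene and less RNA of it per cell cannot be told apart.

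**Figure D1:**
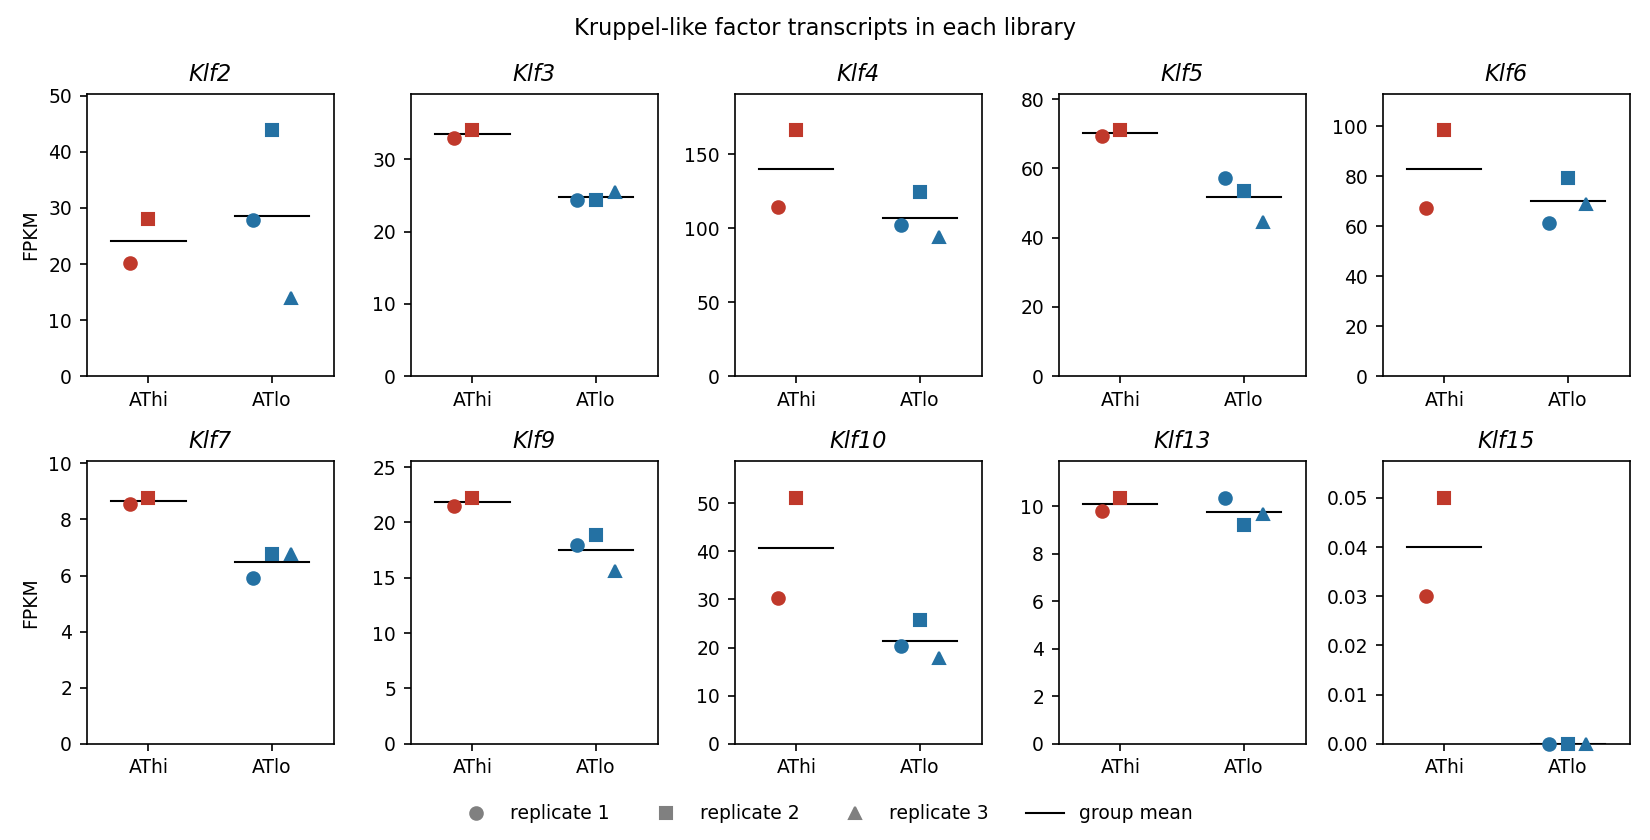
FPKM (vertical axis, from 0, a scale of its own for each gene) of the 10 Kruppel-like factor genes in each AThi (red) and ATlo (blue) library, with symbols for the replicate number and a line at the group mean. Both AThi points lie above all ATlo points for Klf3, Klf5, Klf7, Klf9 and Klf10, and the replicate 2 squares stand highest in both groups for Klf2, Klf4, Klf6, Klf9 and Klf10, by a small margin for Klf9.

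Klf4 was the most abundant member in every library and made up 32.5% of the members' summed FPKM in AThi and 31.8% in ATlo. By the mean over 5 libraries it was followed by Klf6 (75.0 FPKM) and Klf5 (59.1), of which Klf6 was higher in 4 of 5 libraries. Klf10 (29.1), Klf3 (28.3) and Klf2 (26.8) had no fixed order, as Klf10 exceeded Klf3 in 2 and Klf3 exceeded Klf2 in 3 of the 5 libraries. Klf9 (19.2), Klf13 (9.89) and Klf7 (7.35) followed, each above the next in all 5 libraries. The summed FPKM of the 10 genes was 374 and 490 in the AThi libraries and 297 to 387 in the ATlo libraries, so the sums of the groups overlap.

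Among the activator group, Klf5 (chromosome 14, 99298691 to 99315036, plus strand of GRCm38), a factor of growing epithelial progenitors, was at 69.25 and 70.96 FPKM in AThi and at 57.28, 53.52 and 44.48 FPKM in ATlo replicates 1 to 3. Both AThi libraries were above all ATlo libraries, and the ATlo libraries differed more among themselves than the AThi libraries did. Mean levels were 70.1 ± 1.21 (SD, n = 2) and 51.8 ± 6.58 FPKM (SD, n = 3), and the log2 difference was 0.44 ± 0.11 (SE, adjusted p = 0.0130 in limma). The call was lost without AThi replicate 1 (adjusted p = 0.0547) or AThi replicate 2 (adjusted p = 0.0703), and with no filter on low values (adjusted p = 0.0507).

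Klf7 (chromosome 1, 64029447 to 64122282, minus strand), a close relative of Klf6 known from neurons and progenitor cells, was at 8.55 and 8.77 FPKM in AThi and at 5.92, 6.75 and 6.75 FPKM in ATlo. The groups did not overlap, and the AThi libraries lay within 1.03-fold of each other. The log2 fold change was 0.40 ± 0.08 (SE, adjusted p = 0.00594), and the gene passed with each library left out in turn. The annotated exons of Klf7 share 3196 bases with Gm26649 on the other strand, which was at 0 to 0.01 FPKM. The library kit kept strand, but whether the counting used it is not given in the labels.

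Klf4 (chromosome 4, 55527143 to 55532466, minus strand) was at 114.29 and 166.26 FPKM in AThi and at 102.57, 124.87 and 94.13 FPKM in ATlo. The groups overlap, since ATlo replicate 2 lay above AThi replicate 1, and the replicate 2 library was the highest of each group. The means were 140.3 ± 36.7 (SD, n = 2) and 107 ± 15.9 FPKM (SD, n = 3), and the difference of 0.37 ± 0.18 (SE) on the log2 scale did not pass (adjusted p = 0.120), with a 95% interval from -0.05 to 0.79. Without AThi replicate 1 the difference was 0.64 and passed (adjusted p = 0.0270), and without AThi replicate 2 it was 0.10.

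Klf6 (chromosome 13, 5861482 to 5870394, plus strand), known as a stimulus-responsive gene with growth-suppressing roles, was at 67.26 and 98.33 FPKM in AThi and at 61.26, 79.38 and 69 FPKM in ATlo. Here too the replicate 2 library was the highest of each group, and AThi replicate 1 lay inside the range of ATlo. The difference was 0.23 ± 0.17 (SE, adjusted p = 0.307), with a 95% interval from -0.18 to 0.63. It was 0.50 without AThi replicate 1, where it passed (adjusted p = 0.0432), and -0.05 without AThi replicate 2.

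Klf2 (chromosome 8, 72319033 to 72321656, plus strand), known for quiescence of T cells and for the vessel wall, was at 20.18 and 28.04 FPKM in AThi and at 27.87, 43.83 and 13.93 FPKM in ATlo. ATlo held both the highest and the lowest library, 3.15-fold apart, and AThi lay between them. The difference of -0.11 ± 0.42 (SE) did not pass (adjusted p = 0.836), and its 95% interval ran widely, from -1.11 to 0.88. With single libraries left out it ranged from -0.55 without ATlo replicate 3 (adjusted p = 0.0997) to 0.26 without ATlo replicate 2. It was -0.35 without AThi replicate 2, 0.12 without AThi replicate 1 and 0.0002 under quantile normalization. With the replicate number as a block the difference was -0.55 and passed (adjusted p = 0.000702 in limma), with 1 residual degree of freedom. In that fit 8.12 prior degrees of freedom came from all tested genes, so this p-value rests mostly on the spread of other genes. The labels do not say that the replicate number marks a shared culture or day.

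In the CtBP-binding group, Klf3 (chromosome 5, 64803388 to 64832901, plus strand) was at 32.93 and 34.03 FPKM in AThi and at 24.43, 24.41 and 25.53 FPKM in ATlo. The libraries of each group lay within 1.05-fold of each other and the groups were clearly apart. The log2 fold change was 0.43 ± 0.06 (SE, adjusted p = 0.00123), with a 95% interval from 0.29 to 0.57, and the gene passed with each library left out. Its exons share 404 bases with Gm20033 on the other strand, which was at 0.16 to 0.38 FPKM. Its partner gene Ctbp1 fell, by 0.23 on the log2 scale (adjusted p = 0.0169), a call lost without AThi replicate 1, AThi replicate 2 or ATlo replicate 3, and Ctbp2 had a difference of -0.06 (adjusted p = 0.512).

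In the SIN3A-binding group, Klf10 (chromosome 15, 38291463 to 38300706, minus strand), known as an early gene induced by TGF-beta, was at 30.36 and 51.13 FPKM in AThi and at 20.33, 25.7 and 17.86 FPKM in ATlo. Both AThi libraries were above all ATlo libraries, but they lay 1.68-fold apart from each other. The means were 40.7 ± 14.7 (SD, n = 2) and 21.3 ± 4.01 FPKM (SD, n = 3), a ratio of 1.91, and the log2 difference was 0.89 ± 0.23 (SE, adjusted p = 0.0161). Without AThi replicate 2 it was 0.52 and did not pass (adjusted p = 0.0854), and with no filter on low values the adjusted p was 0.0733.

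Klf9 (chromosome 19, 23141226 to 23168134, plus strand), known as a target of glucocorticoid and thyroid hormone, was at 21.53 and 22.22 FPKM in AThi and at 17.93, 18.87 and 15.64 FPKM in ATlo. The groups did not overlap. The log2 fold change was 0.32 ± 0.09 (SE, adjusted p = 0.0203), and the call was lost without AThi replicate 1 (adjusted p = 0.0670) or AThi replicate 2 (adjusted p = 0.0996) and with no filter on low values (adjusted p = 0.0582).

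Klf13 (chromosome 7, 63886351 to 63938915, minus strand), known from T cells and the heart, was at 9.82 and 10.36 FPKM in AThi and at 10.35, 9.22 and 9.68 FPKM in ATlo. The groups overlap, and the difference of 0.05 ± 0.07 (SE, adjusted p = 0.606) had a 95% interval from -0.12 to 0.22. Klf15 (chromosome 6, 90462576 to 90475238, plus strand), a metabolic regulator of liver and muscle, was at 0.03 and 0.05 FPKM in AThi, or 2 and 6 implied reads, and was listed at 0 in the 3 ATlo libraries. In the AThi libraries 3 reads correspond to 0.0388 and 0.0239 FPKM and in ATlo to 0.0255 to 0.0298 FPKM, so at this depth no difference can be read from Klf15.

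**Figure D2:**
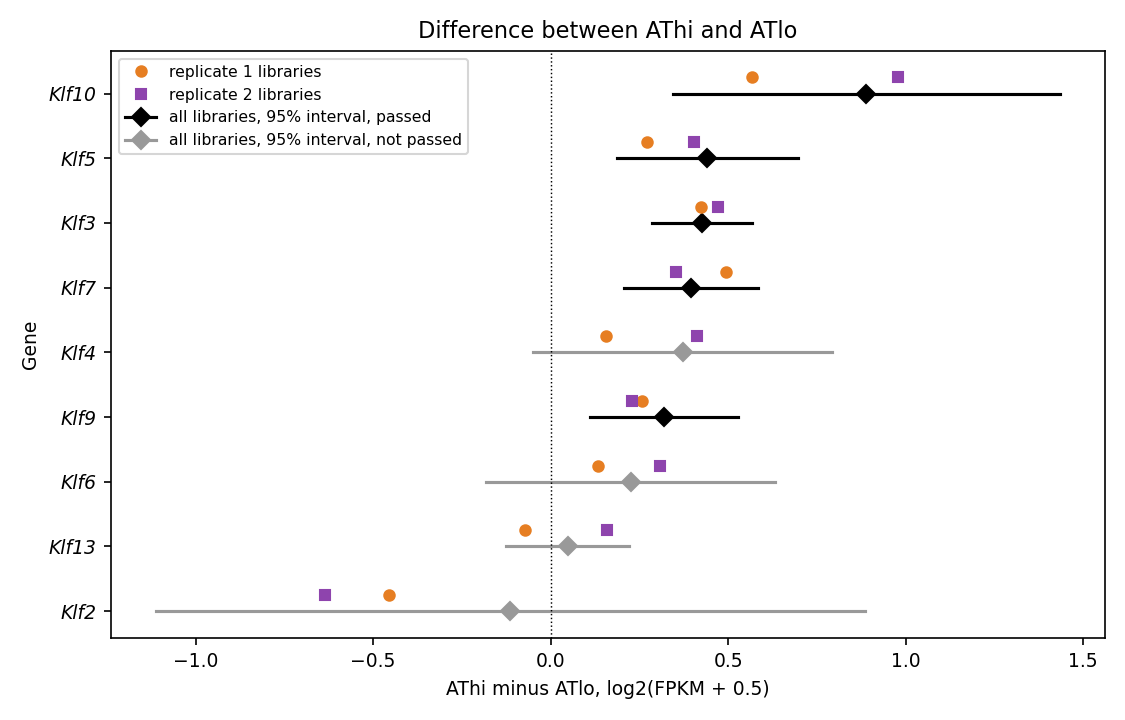
Difference between AThi and ATlo in log2(FPKM + 0.5) (horizontal axis) for the 9 tested Kruppel-like factor genes, as the estimate over all libraries with its 95% interval (black where the gene passed, grey where it did not) and, above each, the differences between the replicate 1 libraries (circles) and between the replicate 2 libraries (squares). For Klf2 both same-numbered differences are below 0, at -0.46 and -0.64, and for Klf13 they lie on either side of 0.

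The libraries of replicate 1 share the code 0226 in their titles and those of replicate 2 the code 0319, while ATlo replicate 3 alone has the code 0326, and the labels do not say what the codes stand for. Within the codes, the differences between AThi and ATlo were all above 0 for the 5 members that rose. That sign was fixed in advance, since the groups of these members do not overlap. The differences were between 0.26 and 0.57 in replicate 1 and between 0.23 and 0.98 in replicate 2. For Klf4 they were 0.16 and 0.41 and for Klf6 0.13 and 0.31. For Klf2 they were -0.46 and -0.64, so AThi was lower in both codes. For Klf13 they were -0.07 and 0.16. Each code holds 1 library per group, so these values have no error of their own.

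The members differed widely in how much libraries of a group varied. The SD within groups was 0.69 log2 units for Klf2, 0.37 for Klf10, 0.28 for Klf4 and 0.27 for Klf6. Among the 1000 tested genes nearest in level, these lay at or above 99.9%, 99.4%, 95.3% and 95.3%. Klf5 had 0.15 (87.8%), Klf9 0.11 (77.4%), Klf7 0.08 (45.9%), Klf13 0.07 (37.6%) and Klf3 0.04 (10.4%). The 4 most variable members are those named above as genes with quick responses to stimuli. The members were chosen with earlier results of these data known, so this match is a description, and its cause was not tested.

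**Figure D3:**
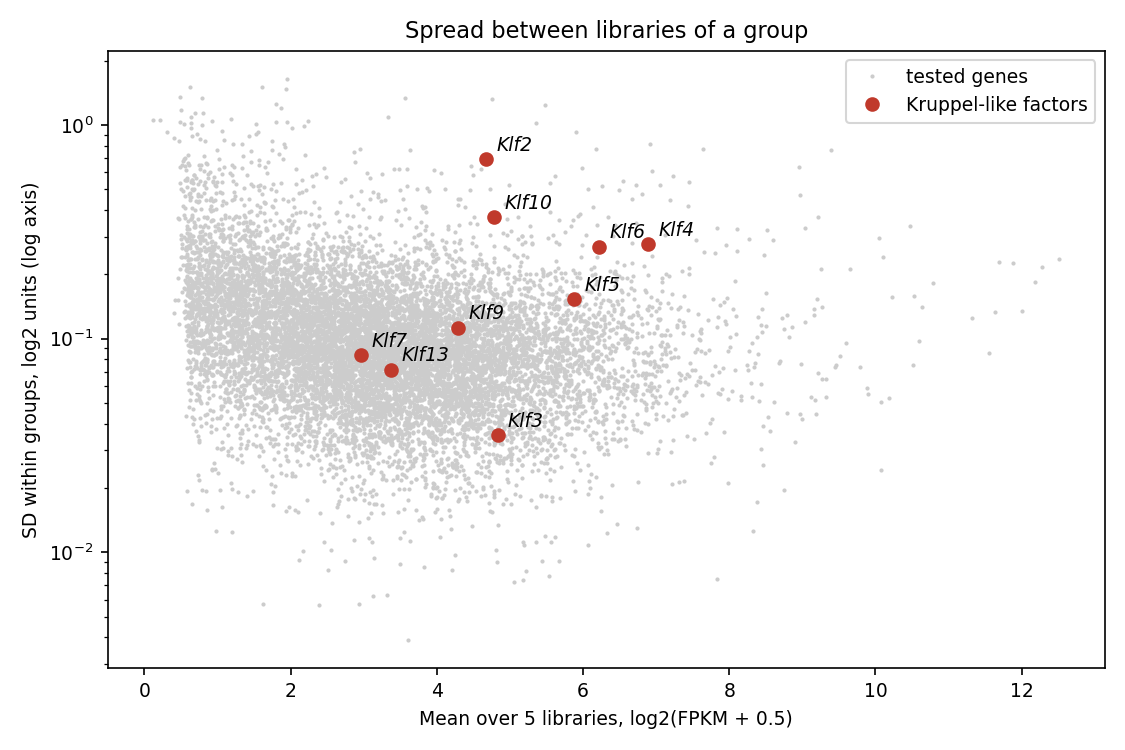
SD between libraries within groups (vertical log axis, log2 units) against the mean over 5 libraries (horizontal axis, log2(FPKM + 0.5)) for the 11397 tested genes (grey) and the 9 tested Kruppel-like factor genes (red). Klf2, Klf10, Klf4 and Klf6 lie along the upper edge of the cloud and Klf3 lies low in it.

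Of the 9 tested members, 9 were higher in replicate 2 than in replicate 1 of AThi and 6 in ATlo. The 4 most variable members had the largest such differences in both groups, but these differences enter the SD within groups and are not separate from it. The difference was 0.74 in AThi and 0.33 in ATlo for Klf10, 0.54 and 0.37 for Klf6, 0.54 and 0.28 for Klf4, and 0.46 and 0.64 for Klf2, on the log2 scale. For Klf3, Klf5, Klf7, Klf9 and Klf13 it was 0.03 to 0.07 in AThi and -0.16 to 0.18 in ATlo. ATlo replicate 3 minus replicate 1 was -0.98 for Klf2, -0.18 for Klf10, -0.12 for Klf4 and 0.17 for Klf6. Immediate-early genes, known for their fast induction by serum and by the handling of cells, were also mostly higher in replicate 2 than in replicate 1. Of 18 such genes outside the family, 18 were so in AThi and 15 in ATlo, against 5346 and 5704 of all 11397 tested genes. Their summed FPKM was 4299 and 6733 in AThi replicates 1 and 2 and 1986, 2449 and 1528 in ATlo replicates 1 to 3 (exact two-sided permutation p = 0.2, the smallest that 2 libraries against 3 can give). Between AThi and ATlo 17 of the 18 rose and 1, Fosl1, fell, against 22.2% and 29.4% of all tested genes. The median difference of the 18 was 1.69 on the log2 scale. The most abundant were Fos, Junb and Ier2, with differences of 1.65, 1.39 and 1.21; 14 of these 18 calls held with each library left out in turn. Their part in the levels of the Kruppel-like factors was not tested. Transcripts of the mitochondrial genome held 10.04% and 7.51% of all FPKM in AThi and 5.53% to 5.98% in ATlo, and their part was not tested either.

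**Figure D4:**
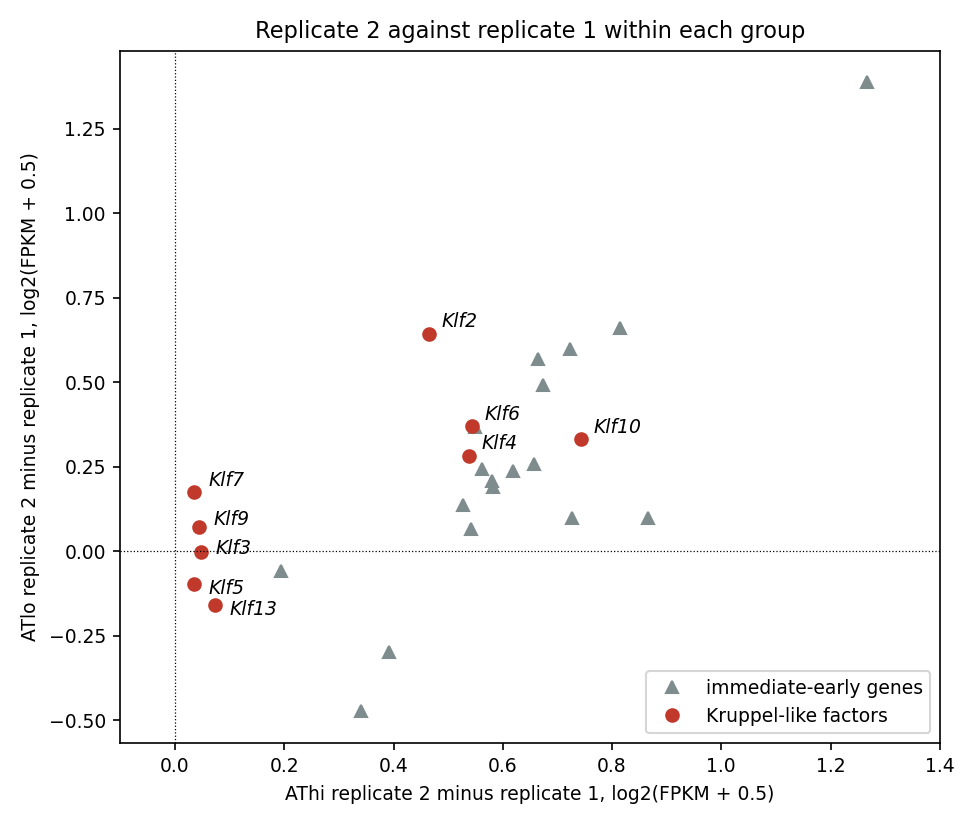
Replicate 2 minus replicate 1 in log2(FPKM + 0.5), in AThi (horizontal axis) and in ATlo (vertical axis), for the 9 tested Kruppel-like factor genes (circles) and 18 immediate-early genes (triangles). Klf2, Klf4, Klf6 and Klf10 lie above 0.4 in AThi and above 0.2 in ATlo, and the other Kruppel-like factors lie between 0.03 and 0.07 in AThi and between -0.16 and 0.18 in ATlo.

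Of 7 other Klf genes 2 had a mean of at least 1 FPKM and were tested: Klf11, the closest relative of Klf10, and Klf16. Klf11 rose from 11.57, 11.3 and 10.43 FPKM in ATlo to 16.54 and 18.63 FPKM in AThi. The log2 difference was 0.64 ± 0.08 (SE, adjusted p = 0.000802), and it passed with each library left out. Klf16 was at 15.54 and 17.24 FPKM in AThi and 13.95 to 15.77 in ATlo, and its difference of 0.14 did not pass (adjusted p = 0.168) except under quantile normalization (0.24, adjusted p = 0.0423). Klf1, Klf8 and Klf12 were at 0.02 to 0.35 FPKM, and Klf14 and Klf17 were listed at 0 in all libraries. Of 9 related SP factor genes, which bind the same GC boxes, 4 were tested. Sp4 rose by 0.57 ± 0.11 (SE, adjusted p = 0.00501) and Sp2 fell by 0.41 on the log2 scale (adjusted p = 0.00274), and both passed with each library left out. The broadly expressed Sp1 and Sp3 had differences of 0.02 and -0.08 (adjusted p = 0.855 and 0.338).

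Among routes known to control KLF transcripts, genes moved in both directions. Of all tested genes, 22.2% rose and 29.4% fell. Of 9 tested genes of the MEK5-ERK5-MEF2 route, an inducer of Klf2 and Klf4, 1 rose (Hdac5, a repressor of MEF2, by 0.46) and 1 fell (Mapk7, the gene of ERK5, from 9.32 to 7.89 FPKM on average), with a median difference of -0.03. The fall of Mapk7 was lost with each of 4 of the 5 libraries left out. Mef2d, the most abundant MEF2 gene, was at 35.11 and 39.4 FPKM in AThi and 38.56 to 41 in ATlo (adjusted p = 0.305), Map3k3 had a difference of -0.03 (adjusted p = 0.771), and Mef2c was at 0 to 0.01 FPKM. Of 7 tested genes of the TGF-beta route, which induces Klf10 and Klf11, Smad7, a feedback inhibitor, rose by 0.43 ± 0.12 (SE, adjusted p = 0.0231). That call was lost without AThi replicate 2 or ATlo replicate 1. The ligand gene Tgfb1 fell, from 16.05 to 17.6 FPKM in ATlo to 10.34 and 9.14 FPKM in AThi, a difference of -0.76 ± 0.08 on the log2 scale (SE, adjusted p = 0.000374), and Smad2 fell by 0.24 on the log2 scale, which was lost with each of 4 libraries left out. The most abundant others, Smad4 and Smad3, had differences of -0.05 and 0.13 (adjusted p = 0.630 and 0.107). The median over the 7 was -0.05, and 2 rose in place of 1 after rescaling to TPM or under quantile normalization.

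Of 7 tested genes of glucocorticoid signalling, the known inducer of Klf9, 4 rose and 2 fell, against 22.2% and 29.4% of all tested genes. The median difference of the list was 0.66. The receptor gene Nr3c1 rose from 9.63 to 10.8 FPKM in ATlo to 16.06 and 16.37 FPKM in AThi, a difference of 0.66 ± 0.07 on the log2 scale (SE, adjusted p = 0.000451). The clock gene Per1, the EGFR inhibitor gene Errfi1 and the transcription factor gene Cebpd rose by 1.04, 0.88 and 1.54, and these genes also answer to other signals. The receptor chaperone gene Fkbp5 changed by -0.57 and the kinase gene Sgk1 by -0.75, the latter lost without AThi replicate 1 (adjusted p = 0.0677), while Tsc22d3, a gene induced by the receptor in many tissues, had a difference of -0.06 (adjusted p = 0.760).

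Enzymes known to control the stability of KLF proteins were the remaining list. Of 13 tested ubiquitin ligase and deubiquitinase genes 6 rose and 2 fell, against 22.2% and 29.4% of all tested genes. The median difference of the list was 0.19, and 4 of these 8 calls held with each library left out in turn. Fbxo32, whose product is a ubiquitin ligase of KLF4, rose by 1.18 ± 0.14 (SE, adjusted p = 0.000599). Usp3, a deubiquitinase gene, and Vhl, the gene of another ligase reported for KLF4, rose by 0.56 and 0.33. Wwp1, a ligase gene for KLF2 and KLF5, rose by 0.37, a call lost without AThi replicate 2. The ligase genes Smurf2 and Itch rose by 0.26 and 0.23, calls lost without AThi replicate 2 for both and also without AThi replicate 1 or ATlo replicate 2 for Itch. Siah1b changed by -0.96 ± 0.17 (SE, adjusted p = 0.00385) and Bap1 by -0.31, the latter lost without AThi replicate 1. Fbxw7, whose product marks KLF5 for degradation, had a difference of -0.12 (adjusted p = 0.174). No protein level was measured.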

How the data were processed

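Messenger RNA libraries of 2 AThi and 3 ATlo samples were analysed, grouped by their titles. The authors deposited FPKM values in 1 table with a column per library. Per the submitters' processing notes, bcl2fastq, STAR, featureCounts and DESeq2 were used with mm10 and GRCm38, while the sources used here give no version, annotation, strand setting or FPKM formula. Here, limma 3.58.1 (R 4.3.3) tested the 11397 genes whose mean over libraries reached 1 FPKM (lmFit, eBayes with trend, group as the single term, two-sided) on log2(FPKM + 0.5), which understates changes of low genes. No error rate of this fit for 2 against 3 libraries is given here. Intervals of differences are 95% intervals from this fit. Depth was read from the steps of FPKM among single-exon genes no longer than 200 nucleotides (99.7% to 100% of values whole within 0.1 of a step). Implied reads use GENCODE M21 exon lengths, and 47982 of 52459 names matched 1 annotated gene. A floor of 3 reads covers counting error only. In 26 rows a date-like number replaced the symbol; these were not named.

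The members and gene lists were chosen with earlier results of these data known. All members are named, as are the genes past the threshold and the 3 with the largest mean FPKM of each list (of the immediate-early genes, Fosl1 and the latter). Fbxw7, Ctbp2, Sin3a, Sin3b, Mef2c, Hdac4, Hdac7 and the Klf genes below 1 FPKM were named after their values were seen. Alternatives covered pseudocount, filter, scaling, moderation, replicate block, threshold and each library left out; for gene lists they were added after seeing the data. Python 3.11.15 drew the figures.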

Additional observations from a re-analysis of the deposited data

How the results depend on the processing

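The 5 members called higher in AThi were also 5 under pseudocounts of 0.1 and 1, a minimum mean of 5 FPKM, rescaling to TPM, quantile normalization, equal medians, and moderation without trend or with robust estimation. They were 2 with no filter on low values and 2 at an adjusted p under 0.01, and with a library left out between 2 and 5, the lowest without AThi replicate 2; without AThi replicate 1 they were 5 but included Klf4 and Klf6 in place of Klf5 and Klf9. Over all genes 3884 passed at an adjusted p under 0.01 and 4309 to 5718 with a library left out, against 5884. With 1 AThi library left, the lone sample is assumed to vary like the ATlo libraries. Signs turned for Klf2 under quantile normalization (0.000199), without AThi replicate 1 (0.12) and without ATlo replicate 2 (0.26), and for Klf6 without AThi replicate 2 (-0.047; 0.50 without AThi replicate 1). The cause was not tested. The highest share of calls in the upward direction was 51.5%, under quantile normalization, against 43.0%.

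The labels do not say that a replicate number marks a shared culture or day. Deviations from the group means correlated at 0.20 between the replicate 1 libraries and at 0.30 between the replicate 2 libraries. These values are over 11397 genes, which are not independent. The deviations of the 2 AThi libraries mirror each other, so each ATlo library has the same value with opposite sign against the other AThi library. ATlo replicate 3 had 0.06 with AThi replicate 1 and -0.06 with AThi replicate 2. With the replicate number as a block, 5909 genes passed, among them 6 members higher and 1 lower in AThi: Klf4 rose by 0.28 (adjusted p = 0.0245) and Klf2 changed by -0.55 (adjusted p = 0.000702). In that fit ATlo replicate 3 has no partner, and 1 residual degree of freedom is left, against 8.12 prior degrees of freedom from all tested genes. The count tests listed as an alternative were not run, since the values are FPKM.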

Other observations

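Of 14 tested genes of coregulators through which KLF proteins act, 4 rose and 3 fell in AThi and 7 did not pass. These shares are near those of all tested genes, of which 22.2% rose and 29.4% fell. The list had a median log2 difference of 0.09 against -0.03 over all tested genes. Those that rose encode acetyltransferases (Ep300 by 0.40, Crebbp by 0.35 and Kat2b by 0.51 on the log2 scale) and the SUMO ligase Pias1 (0.39). Those that fell were the deacetylase genes Hdac1 (-0.49) and Hdac2 (-0.41) and Ctbp1 (-0.23). When single libraries were left out, 5 of these 7 calls held and those of Crebbp (without AThi replicate 2 or ATlo replicate 2) and Ctbp1 (without AThi replicate 1, AThi replicate 2 or ATlo replicate 3) did not. Under quantile normalization 7 of the 14 genes rose. The scaffold genes Sin3a and Sin3b had differences of 0.09 and 0.03 (adjusted p = 0.213 and 0.722 in limma). The abundant Hdac3 and Sap30 had differences of -0.11 and 0.09 (adjusted p = 0.176 and 0.379). Deacetylase genes did not move as a class. Of those listed with the MEK5-ERK5-MEF2 route, Hdac5 rose by 0.46. Hdac4 and Hdac7 had differences of 0.15 and 0.19 (adjusted p = 0.251 and 0.101 in limma).

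Of 6 growth-arrest genes known as targets of the family 4 rose: Cdkn1a, the p21 gene that KLF4 and KLF6 activate, from 8.01 to 11.86 FPKM in ATlo to 15.64 and 27.53 FPKM in AThi, Cdkn1c by 1.13, Cdkn2b by 0.42 and Gadd45b by 0.70. The call of Cdkn1a was lost without AThi replicate 2, that of Cdkn2b without AThi replicate 1 and that of Gadd45b without AThi replicate 2 or ATlo replicate 1. Cdkn1b had a difference of 0.01 (adjusted p = 0.956). With no filter on low values 1 of the 6 rose. Of 7 growth genes known as KLF5 targets, 4 fell, with log2 differences of -0.63 for Ccnd1, -2.41 for Cdk1, -2.79 for Ccnb1 and -3.64 for Birc5. Ccnb1 was at 0.32 and 0.35 FPKM in AThi and 4.15 to 6.84 in ATlo, so it reached the test only through its ATlo values. The pseudocount shrinks its difference: the ratio of mean FPKM, AThi over ATlo, was 0.062 for Ccnb1 and 0.060 for Birc5. Pdgfa, another KLF5 target, rose by 0.79, and the abundant Myc had a difference of 0.03 (adjusted p = 0.779). The median was 0.56 over the growth-arrest genes and -0.63 over the growth genes. Of all tested genes, 22.2% rose and 29.4% fell, with a median of -0.03. All 5 calls among the growth genes held with each library left out. The part of KLF proteins in the differences of both lists was not tested.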
